A study of Mus musculus with 6 samples.

Results

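Endothelial genes that mark the glomerular tuft or the capillaries around the tubules were read in kidneys of mice with a heart-expressed mutant chaperone. The members are 10 gene symbols: Ehd3, Plat, Emcn and Kdr as glomerular markers, Plvap as the peritubular marker, and Ramp3, Flt1, Eng, Pecam1 and Cdh5, which were not assigned to either bed. They were found by symbol among the 7373 genes listed, and 7 of the 10 were present. Kdr, Flt1 and Cdh5 have no entry there and are not analysed here, so 3 of the 4 glomerular markers remain beside the 1 peritubular marker. The members were selected on the estimated counts of the same 6 libraries, with their differences between groups in view, so those differences are given as descriptions. Each of the 7 genes passed the authors' floor in all 6 libraries, so none entered through the group where it is higher.

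The transgenic kidneys (3 samples) came from adult male FVB/N mice that overexpress a mutant (R120G) of CryAB, a chaperone of the small heat shock family. The α-myosin heavy chain promoter drives the transgene in heart muscle cells, and kidneys were taken before heart failure began. The table's headers mark all 6 libraries, transgenic and control, as Pre_IRI, a term the labels do not spell out. The control kidneys (3 samples) came from adult male mice matched for age, which the labels call control with strain FVB/N and describe no further. RNA came from frozen pieces of each kidney, and a library therefore mixes glomeruli, tubules and vessels of cortex and medulla. Nothing in the labels ties a sample to a numbered animal, so errors and p-values speak only of the spread among these 6 samples, which may be technical.

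Blood vessels of the kidney are lined by endothelium of several kinds. Glomerular endothelium is pierced by open fenestrae through which plasma is filtered, and it depends on VEGF made by the neighbouring podocytes. Peritubular capillaries and ascending vasa recta take up reabsorbed fluid, and their fenestrae are closed by diaphragms built from PLVAP. In whole kidney RNA, fewer cells of a type and less RNA per cell cannot be told apart.

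Depth over the listed genes was 29.0, 23.5 and 31.7 M estimated counts in transgenic kidneys 1, 2 and 3, against 28.0, 34.9 and 47.6 M in controls 1, 2 and 3. The 7 members had between 643.6 and 7525 estimated counts per library, and their number limits the precision of each value. Control 3 stands apart: the 178 genes on X and Y are all listed at 0 in it, and it lies at 24.7 on a first principal component holding 51.9% of the variance, where the other libraries lie between -12.5 and 0.71. The X and Y genes were left out of the fit, the members are all on other chromosomes, and each member's log2 fold change is also given without control 3. Cryab itself stood at 186, 178 and 194 CPM in transgenic kidneys, against 210.1, 223 and 292 CPM in controls; a heart promoter drives the transgene, so this gene does not check the labels.

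Levels are given in CPM, the estimated counts of a gene scaled to the size of its library. In transgenic kidneys the glomerular marker Ehd3 was higher and the peritubular marker Plvap lower, each in all 3 libraries without overlap with the 3 controls. Ramp3 was lower and Eng slightly higher, also without overlap. Plat, Emcn and Pecam1 overlapped. Thus 4 of 7 members did not overlap, 2 higher and 2 lower; over the 7194 genes tested 5.98% did not overlap, 2.96% higher and 3.02% lower. No member passed a Benjamini-Hochberg adjusted p of 0.05 in the quasi-likelihood test of edgeR over all genes (adjusted p = 0.997 for each), where 1 gene, Ren1, did (0.0139%). Ehd3 and Plvap had an unadjusted p under 0.05, as did 1.82% of all genes. Since the members were chosen on this contrast, nothing is read from these counts. The middle 90% of genes lay between -0.23 and 0.19 on the log2 fold change scale, with a median of 0.00.

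**Figure D1:**
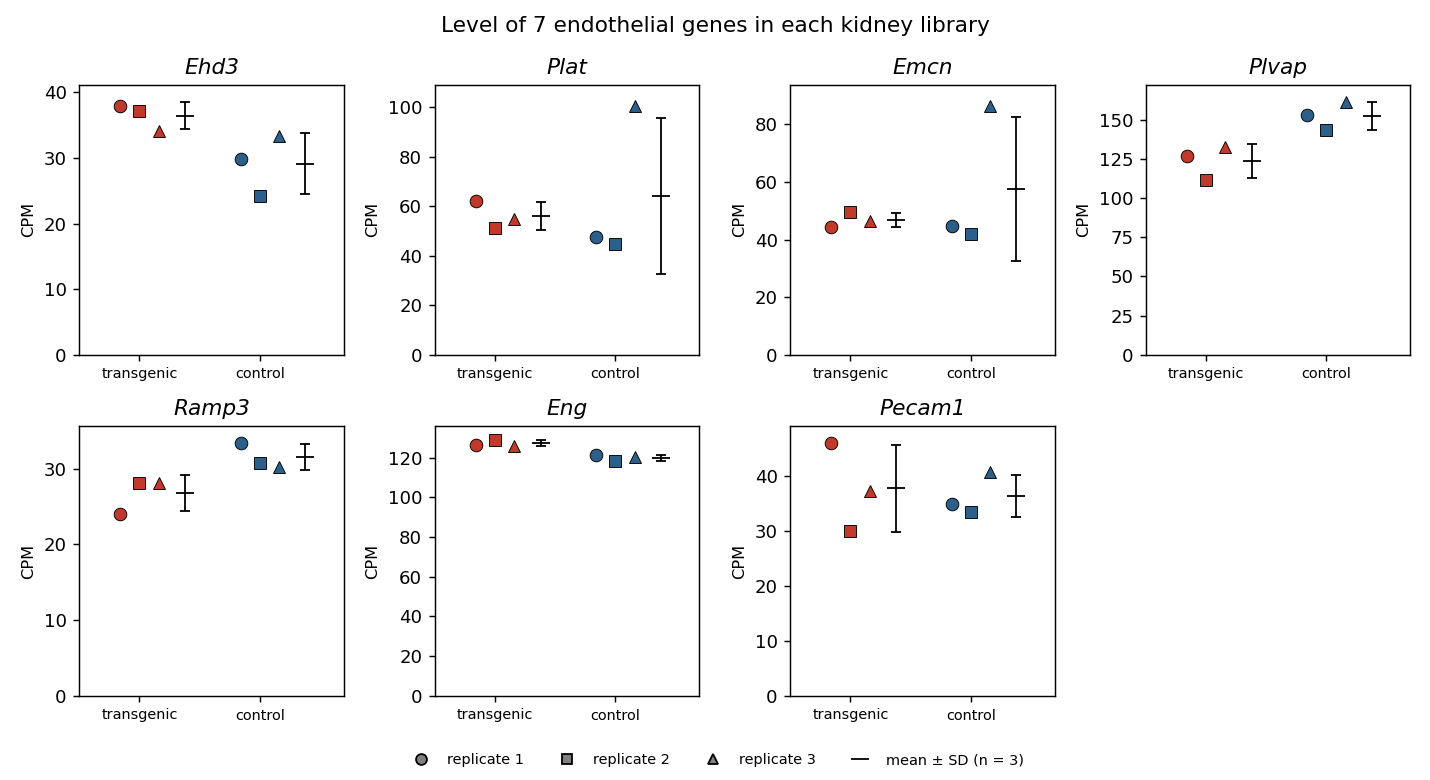
Level in CPM (y axes from 0) of the 7 listed genes in each library, transgenic kidneys left and controls right, with the mean and SD of 3. Ehd3 lies between 34.1 and 37.95 CPM in transgenic kidneys, above the controls at 24.2 to 33.4 CPM, while Plvap lies at 112 to 133 CPM, below the controls at 143 to 162 CPM; control 3 is far above the other libraries in Plat and Emcn.

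Levels per length set the order of the genes. Divided by the length of their transcripts, Plvap was the most abundant, at 62.4 ± 5.46 CPM per kb in transgenic kidneys and 76.9 ± 4.58 CPM per kb in controls (SD, n = 3 each). Eng came second at 37.2 ± 0.437 CPM per kb in transgenic kidneys and 35.1 ± 0.454 CPM per kb in controls. Plat (22.2 ± 2.21 and 25.4 ± 12.5 CPM per kb in transgenic kidneys and controls), Ramp3 (21.7 ± 1.94 and 25.5 ± 1.39) and Emcn (18.1 ± 0.981 and 22.3 ± 9.68) followed, and their values overlapped, except that in transgenic kidneys Emcn lay below both others. Pecam1, at 10.96 ± 2.30 CPM per kb in transgenic kidneys and 10.6 ± 1.12 CPM per kb in controls, and Ehd3, at 9.95 ± 0.561 CPM per kb in transgenic kidneys and 7.96 ± 1.27 CPM per kb in controls, were the lowest; these 2 genes overlapped in transgenic kidneys, and Ehd3 lay below Pecam1 in controls.

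Ehd3 (gene ID 57440; chromosome 17, 73804841 to 73832093, mm10) encodes an EH-domain ATPase that recycles endocytosed membrane, and in the mouse kidney it is known as a marker of glomerular endothelium. It stood at 37.95, 37.2 and 34.1 CPM in transgenic kidneys, against 29.8, 24.2 and 33.4 CPM in controls. All 3 transgenic values lay above all 3 controls, with a gap of under 1 CPM between the lowest transgenic kidney and control 3. The means were 36.4 ± 2.05 CPM in transgenic kidneys and 29.1 ± 4.64 CPM in controls (SD, n = 3 each), a log2 fold change of 0.32 ± 0.13 (SE). It was 0.43 without control 3 and 0.20 without control 2, the control with the lowest value. The 3 related family genes showed no such separation: Ehd1, Ehd2 and Ehd4 differed by -0.01, 0.11 and -0.07 on the log2 scale, and their groups overlapped. No 75-base stretch of the Ehd3 transcript is shared with an annotated transcript of another gene, so reads of that length would not be split with other genes.

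Plvap (gene ID 84094; chromosome 8, 71497753 to 71511806, mm10) encodes the protein of the fenestral and caveolar diaphragms, which mature glomerular capillaries largely lack. It stood at 127, 112 and 133 CPM in transgenic kidneys, against 153, 143 and 162 CPM in controls. The highest transgenic kidney lay below the lowest control. The means were 124 ± 10.9 CPM in transgenic kidneys and 153 ± 9.10 CPM in controls (SD, n = 3 each), a log2 fold change of -0.30 ± 0.09 (SE), and -0.26 without control 3. Of the 8 measured genes of caveolae and diaphragms 3 were higher and 5 lower (median log2 fold change -0.04), and without control 3 the higher ones were 5. After Plvap, Ehd2 (0.11, and 0.026 without transgenic kidney 1) had the next smallest p-value, and the caveolin genes Cav1 and Cav2, which overlapped between groups, differed by 0.09 and -0.13 (0.19 and 0.10 without control 3).

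Plat (gene ID 18791; chromosome 8, 22757722 to 22782848, mm10) encodes tissue plasminogen activator, the protease that starts clot lysis. It stood at 62.2, 51.4 and 54.7 CPM in transgenic kidneys, against 47.4, 44.5 and 100.4 CPM in controls. The 3 transgenic kidneys lay between controls 1 and 2 below and control 3 above. The log2 fold change was -0.20 ± 0.29 (SE), and 0.29 without control 3, so 1 library sets its direction.

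Emcn (gene ID 59308; chromosome 3, 137341062 to 137431069, mm10) encodes endomucin, a sialomucin of capillary and venous endothelium that is strong in the glomerulus. It stood at 44.4, 49.5 and 46.6 CPM in transgenic kidneys, against 44.7, 41.8 and 86.6 CPM in controls. Control 3 again stood above all others. The log2 fold change was -0.30 ± 0.25 (SE), and 0.11 without control 3. In control 3 Plat was 1.93 times and Emcn 1.91 times the mean of the other 5 libraries, a ratio of 1.9 or more that 18 of 7194 genes (0.250%) reached, a count chosen after these values were seen. Ehd3 was at 1.02 times the mean of the other 5 in that library, and Plvap at 1.21 times.

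**Figure D2:**
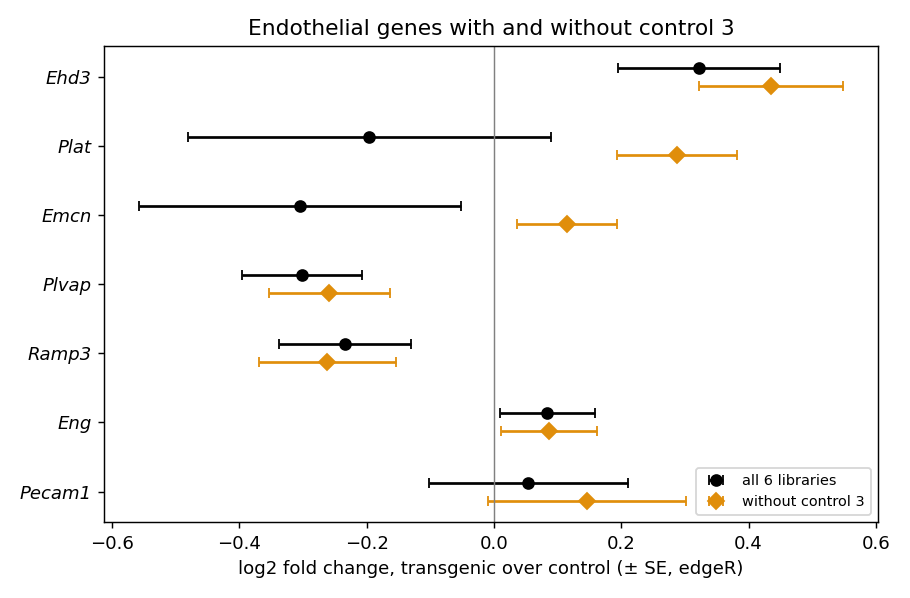
Log2 fold change of transgenic over control (x axis, edgeR, bars ± SE) for the 7 genes, with all 6 libraries (circles) and without control 3 (diamonds). Plat moves to 0.29 and Emcn to 0.11 when control 3 is left out, while Ehd3, Plvap, Ramp3, Eng and Pecam1 keep their sign.

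Ramp3 (gene ID 56089; chromosome 11, 6658506 to 6677478, mm10) encodes a receptor activity-modifying protein, which turns the calcitonin receptor-like receptor into an adrenomedullin receptor. It stood at 24.0, 28.2 and 28.1 CPM in transgenic kidneys, against 33.4, 30.7 and 30.3 CPM in controls. All 3 transgenic kidneys lay below all 3 controls. The means were 26.8 ± 2.39 CPM in transgenic kidneys and 31.5 ± 1.71 CPM in controls (SD, n = 3 each), a log2 fold change of -0.23 ± 0.10 (SE), and -0.26 without control 3. A pseudogene, Gm11978, overlaps 101 bases of Ramp3 exons on the opposite strand and shares 2.59% of its 75-base stretches; since the counting by strand is not given in the sources used here, these reads cannot be told apart.

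Ramp2, which encodes another receptor activity-modifying protein, lay the other way. It stood at 16.8, 17.7 and 15.5 CPM in transgenic kidneys, against 15.1, 13.8 and 13.5 CPM in controls, without overlap (log2 fold change 0.24 ± 0.12, SE). The ratio of Ramp2 to Ramp3, in CPM per kb, was therefore 0.731, 0.658 and 0.578 in transgenic kidneys and 0.471, 0.469 and 0.465 in controls. The controls were close together, control 3 included. Each transgenic kidney lay above them, which follows from the separation of both genes. Only these 2 of 7 adrenomedullin receptor genes were among those listed.

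The 250 bases before the start used in the RefSeq promoter table (GRCm38.p6) are shown for Ehd3 and Ramp3, because these members lay on opposite sides of the controls; Emcn and Eng also had an entry, and Plat, Plvap and Pecam1 had none. Both stretches are on the plus strand and written 5′ to 3′: chr17:73804591-73804840 for Ehd3 and chr11:6658283-6658532 for Ramp3. The table's start for Ramp3 lies inside the gene as given above, so the last 27 bases of its window belong to the gene, as do the last 16 of the Emcn window. Capitals mark GGAA, the core bound by ETS factors that endothelial genes commonly carry, and its reverse complement TTCC.
Ehd3: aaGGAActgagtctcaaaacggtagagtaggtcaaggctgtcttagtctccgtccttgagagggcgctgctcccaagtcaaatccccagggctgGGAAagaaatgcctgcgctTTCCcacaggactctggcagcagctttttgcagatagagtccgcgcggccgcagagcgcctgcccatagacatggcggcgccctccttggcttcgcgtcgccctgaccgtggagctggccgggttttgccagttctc
Ramp3: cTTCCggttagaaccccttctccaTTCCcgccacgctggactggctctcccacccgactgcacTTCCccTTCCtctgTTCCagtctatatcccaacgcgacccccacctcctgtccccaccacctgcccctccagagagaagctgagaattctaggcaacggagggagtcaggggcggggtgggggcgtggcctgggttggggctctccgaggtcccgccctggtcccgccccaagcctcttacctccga

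GGAA, searched on both strands, occurred 3 times in the window of Ehd3 and 5 times in that of Ramp3, with 4 matches in Emcn and 3 in Eng. Of 32851 promoters of the same 250-base window 93.4% hold at least 1 match, with a median of 3, so these counts lie within the usual range. GGGCGG, the SP1 box, occurred 3 times in the window of Ramp3 and had no match in the windows of Ehd3, Emcn and Eng, while 32.7% of promoters hold it. Neither TATAAA (12.4% of promoters) nor AGATAA (9.99%) was found in the 4 windows. The G and C content was 60.0% in Ehd3, 65.2% in Ramp3, 62.4% in Eng and 40.8% in Emcn.

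Eng (gene ID 13805; chromosome 2, 32646595 to 32682669, mm10) encodes endoglin, a co-receptor for ligands of the TGF-β and BMP families on endothelium. It stood at 127, 129 and 126 CPM in transgenic kidneys, against 121, 118 and 120.5 CPM in controls. It was the steadiest member within groups, and the groups did not overlap although they differed by little. The means were 127 ± 1.497 CPM in transgenic kidneys and 120.02 ± 1.55 CPM in controls (SD, n = 3 each), a log2 fold change of 0.08 ± 0.07 (SE), and 0.09 without control 3. Exons of Fpgs overlap 61 bases of Eng exons on the opposite strand. Of the 9 measured genes of its pathway 6 were higher and 3 lower (median log2 fold change 0.07), and without control 3 the higher ones were 7 (median 0.23). Beside Eng, the signal mediator gene Smad4 had the smallest p-value (-0.16, and -0.05 without control 3), and the receptor gene Acvrl1, which binds endoglin's ligands, differed by -0.09 with overlapping groups.

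Pecam1 (gene ID 18613; chromosome 11, 106654213 to 106715281, mm10) encodes the adhesion molecule CD31 of all endothelium, platelets and leukocytes. It stood at 45.8, 30.01 and 37.3 CPM in transgenic kidneys, against 34.8, 33.5 and 40.7 CPM in controls. Transgenic kidneys 1 and 2 held the highest and the lowest value of the 6. The log2 fold change was 0.05 ± 0.16 (SE), 0.15 without control 3 and -0.11 without transgenic kidney 1. Leukocyte and platelet markers were sparse in the list, with 4 of 11 measured and Ptprc, Itga2b and Pf4 not among them; the summed level of the 4 was 31.9 to 47.6 CPM in transgenic kidneys and 40.4 to 53.8 CPM in controls. Their part in the Pecam1 values was not tested.

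Ehd3 was set against Plvap within each library, which removes the scaling between libraries. Since Ehd3 was higher and Plvap lower without overlap, their ratio had to separate the groups. The ratio of Ehd3 to Plvap, in CPM per kb, was 0.162, 0.181 and 0.139 in transgenic kidneys and 0.106, 0.0914 and 0.112 in controls. Every transgenic ratio exceeded every control ratio, a difference of 0.64 on the log2 scale or 1.56-fold, where the SD within groups was 0.19 in transgenic kidneys and 0.15 in controls (n = 3 each). Without control 3 it was 1.63-fold. The ratio draws on 2 genes chosen with their values known and gets no test.

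The other glomerular markers depended on control 3. Plat over Plvap was 0.386, 0.361 and 0.324 in transgenic kidneys and 0.244, 0.244 and 0.489 in controls, and Emcn over Plvap was 0.269, 0.339 and 0.269 in transgenic kidneys and 0.224, 0.224 and 0.411 in controls. Transgenic kidneys lay above controls 1 and 2 and below control 3 in both. The log2 differences were 0.21 for Plat and 0.08 for Emcn, and 0.54 and 0.38 without control 3. Averaged over Ehd3, Plat and Emcn, the log2 ratio of glomerular to peritubular markers was -1.97 ± 0.15 in transgenic kidneys and -2.28 ± 0.40 in controls (SD, n = 3 each). The difference of 0.31 was smaller than the SD of the controls. It was 0.54 without control 3. In every library the median of the 3 genes was Emcn, so replacing their mean by the median gave the Emcn difference again, 0.08.

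The unassigned members had the same denominator, so their ratios share the low Plvap values of the transgenic kidneys. Eng over Plvap was 0.580, 0.669 and 0.551 in transgenic kidneys and 0.460, 0.479 and 0.433 in controls, without overlap. That ratio too had to separate, since Eng was higher and Plvap lower without overlap. Pecam1 over Plvap was 0.209, 0.155 and 0.162 in transgenic kidneys and 0.131, 0.135 and 0.145 in controls, also without overlap, by 0.34 on the log2 scale. Ramp3 over Plvap overlapped, at 0.305, 0.406 and 0.341 in transgenic kidneys and 0.352, 0.345 and 0.302 in controls. With Eng as the denominator in place of Plvap, Ehd3 overlapped between groups: 0.280, 0.270 and 0.253 in transgenic kidneys and 0.230, 0.191 and 0.259 in controls.

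**Figure D3:**
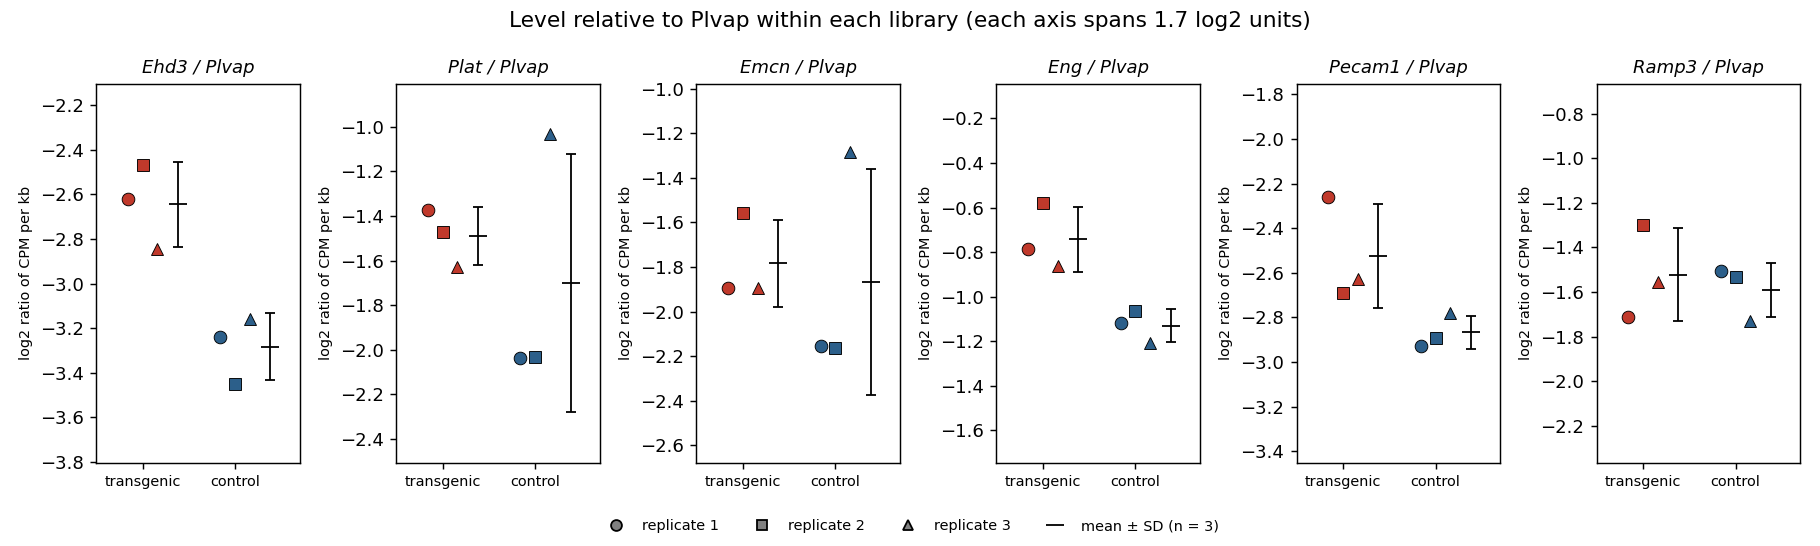
Log2 ratio of each gene to Plvap in CPM per kb (y axes of equal span) in each library, transgenic kidneys left and controls right, with mean and SD of 3. For Ehd3, Eng and Pecam1 the transgenic kidneys all lie above the controls; for Plat and Emcn control 3 lies above the other 5 libraries, and for Ramp3 the groups overlap.

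Among themselves the 7 members formed 21 pairs, and the SD of a pair's log2 ratio over the 6 libraries measures how closely they kept together. The closest were Plvap with Ramp3 (SD 0.16) and Plat with Emcn (0.16), the first pair low in all transgenic kidneys and the second high in control 3. The median over pairs was 0.35. With all 6 libraries Ehd3 was nearer to Eng (0.20) than to its fellow glomerular markers Plat (0.39) and Emcn (0.41). Without control 3 this order turned round, with 0.22 for Ehd3 with Eng, 0.15 for Ehd3 with Plat and 0.21 for Ehd3 with Emcn, and Emcn with Eng had an SD of 0.05.

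By the same measure, the genes most like Ehd3 among 7190 over the 6 libraries were Sncg (SD 0.07), Cyp2a5 (0.11), Crip1 (0.11), Podxl (0.12) and Ubb (0.12), where the median gene had 0.28. Podxl encodes podocalyxin, a sialomucin of podocytes and endothelium. The genes most like Plvap were Tmem207, Wwp1, Slmap, Dnajb6 and Ube2e2 (SD 0.06 to 0.07, where the median gene had 0.23). These rankings rest on 6 points of shared libraries and carry no test. Without control 3, Sncg, Cyp2a5 and Crip1 stayed among the 5 most like Ehd3 and none of the 5 stayed for Plvap.

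Podocyte genes were read beside the glomerular markers, since podocytes and glomerular endothelium both lie in the tuft. Which kidney cells the values of these genes came from was not tested. Of 14 podocyte markers 8 were measured, 4 higher and 4 lower (median log2 fold change 0.02), and without control 3 the higher ones were 6 (median 0.10). Podxl differed by 0.23 with overlapping groups, Clic5 by 0.05 and Cdkn1c by -0.02. The summed level of the 8 was 599 to 643 CPM in transgenic kidneys and 552 to 599.9 CPM in controls. Of this, Actn4 alone made up 295 to 306 CPM in transgenic kidneys and 292 to 316 CPM in controls. The part of glomerular content in the Ehd3 values was not tested.

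Mesangial and vessel wall genes were read next, the latter from vessels of the whole kidney and not of the glomerulus alone. All 7 measured mesangial and vessel wall markers were higher (median log2 fold change 0.08), and 6 of 7 without control 3. Ren1, the renin gene of the afferent arteriole, rose by 1.25 ± 0.12 (SE) on the log2 scale (edgeR, adjusted p = 0.0359), a call that was lost in 6 of 14 alternatives: without control 1, without any 1 of the 3 transgenic kidneys, with X and Y genes kept and on the authors' log2 values. Over the 14 its log2 fold change stayed between 1.14 and 1.37, with an adjusted p of 2.35e-16 to 0.431. Acta2, the smooth muscle actin gene, differed by 0.43 with overlapping groups (0.22 without transgenic kidney 1), and the mesangial marker Pdgfrb by 0.01. Summed, the 7 reached 943 to 1074 CPM in transgenic kidneys and 499 to 633 CPM in controls, of which Ren1 made up 655 to 746 CPM in transgenic kidneys and 252 to 344 CPM in controls. Their part in the endothelial values was not tested.

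Other endothelial genes lay on both sides of 0. Of 54 related endothelial genes, spanning pan-endothelial, glomerular and capillary or vasa recta lists, 24 were measured; 9 were higher and 15 lower (median log2 fold change -0.05), where 50.3% of all genes tested were higher. None passed the test over all genes. The 17 pan-endothelial genes counted 6 higher and 11 lower (median -0.05). Their summed level was 622 to 631 CPM in transgenic kidneys and 629.8 to 668 CPM in controls. Of this, Rapgef3 alone made up 177 to 185 CPM in transgenic kidneys and 151 to 211 CPM in controls. Gpihbp1, which anchors lipoprotein lipase on capillaries, differed by -0.41 ± 0.17 (SE) with overlapping groups. Eltd1, an adhesion receptor gene now named Adgrl4, differed by -0.41 ± 0.17 (SE) without overlap, and by -0.19 without control 3.

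Of the other glomerular endothelial markers 1 of 7, the lipoprotein lipase gene Lpl, was measured, and tubule cells express it too; it differed by 0.14 with overlapping groups. Of 11 capillary, vasa recta and arterial genes 6 were measured, 2 higher and 4 lower. Sema3g, a semaphorin gene placed here with arterial endothelium, had the largest difference among the related endothelial genes. Which kidney cells its values came from was not tested. It stood at 31.4, 18.7 and 21.3 CPM in transgenic kidneys, against 13.7, 11.4 and 17.7 CPM in controls. The groups did not overlap (log2 fold change 0.74 ± 0.23, SE), and transgenic kidney 1 stood highest; without it the log2 fold change was 0.49. Igfbp3, of peritubular and vasa recta endothelium, differed by -0.28 with overlapping groups and by -0.04 without control 3, where it stood at 238 CPM, against 135 to 177 CPM in the other libraries.

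Control 3 held high values beyond Plat and Emcn. Among the 24 related endothelial genes it was the highest library in 8, led by Sox18 (1.62 times the mean of the other 5), Eltd1 (1.61 times), Igfbp3 (1.56 times) and Cd34 (1.44 times), and the lowest in 7, led by Tie1 (0.788 times) and Klf2 (0.813 times). These shares, 33.3% and 29.2%, are near those over all genes tested, 34.8% and 32.6%.

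Ligands and regulators of endothelium were read last. Vegfa, which encodes the growth factor made by podocytes and tubule cells, stood at 217, 175.1 and 182 CPM in transgenic kidneys, against 142, 174.8 and 145 CPM in controls. The groups did not overlap, but transgenic kidney 2 and control 2 lay within 1 CPM (log2 fold change 0.32 ± 0.12, SE). Vegfb and the co-receptor gene Nrp1 differed by 0.01 and 0.03; these were the 3 measured genes of 10 VEGF ligands and receptors, all higher with all libraries and 1 of 3 without control 3. Angpt2, an antagonist ligand of the TIE2 receptor, was at 18.5, 15.4 and 13.997 CPM in transgenic kidneys, against 13.9, 12.99 and 13.2 CPM in controls (log2 fold change 0.26 ± 0.14, SE; 0.14 without transgenic kidney 1). Tie1, the other measured gene of 6 in that pathway, differed by 0.09.

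Of 13 genes of plasminogen activation and coagulation control 8 were measured, 3 higher and 5 lower (median log2 fold change -0.03), and 6 of 8 higher without control 3. Thbd, the endothelial anticoagulant thrombomodulin, was at 20.7, 16.3 and 18.4 CPM in transgenic kidneys, against 23.6, 20.9 and 33.3 CPM in controls. It did not overlap (log2 fold change -0.49 ± 0.18, SE; -0.27 without control 3). Plau, which encodes urokinase, the other plasminogen activator, differed by 0.03 with overlapping groups. Of 9 measured cadherin junction partners 6 were higher and 3 lower, with a median of 0.02; the catenin genes Ctnnb1 and Ctnnd1 differed by -0.20 (-0.13 without transgenic kidney 1) and 0.15 (0.07 without control 3), both with overlapping groups.

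**Figure D4:**
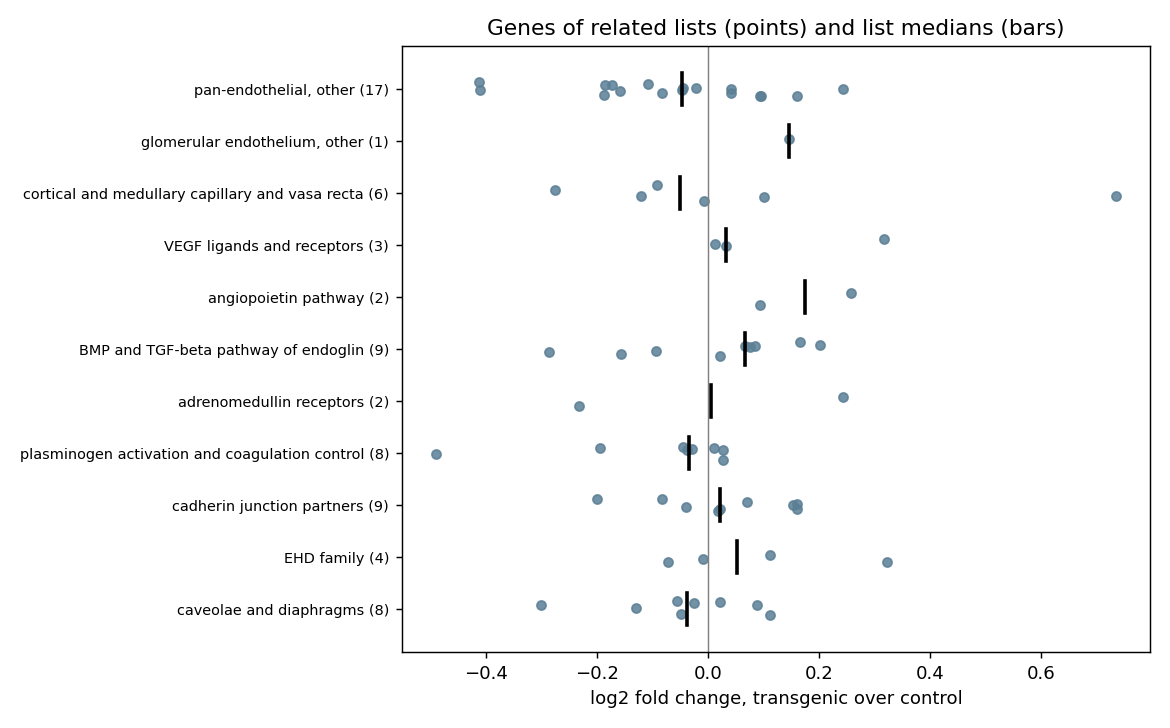
Log2 fold change of transgenic over control (x axis) for each measured gene (points) of 11 related lists, with the list median as a bar and the number measured in brackets. List medians lie between -0.05 and 0.17, while single genes reach 0.74 (Sema3g).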

How the data were processed

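RNA of 3 transgenic and 3 control kidneys was sequenced, with RNA purified on columns per the labels' protocols. Reads were placed on mm10, per the submitters' processing notes; the sources used here give neither aligner nor counting program. A table of 7373 genes was deposited, kept per the file headers where at least 2 of 6 samples reached an NRPKM of 5. Its deposited raw columns hold estimated counts, its normalized columns the authors' log2 values (a scale read from the values, not from a header), and 1 column the count of libraries within the authors' limits. A further 12 columns of per-sample values match none of these samples and were not used.

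Estimated counts were rounded. Genes of chromosomes X and Y, at 0 in control 3, were left out by RefSeq position (GRCm38.p6, 7356 IDs matched). The test was edgeR (version 4.0.16, R 4.3.3) quasi-likelihood with group as the only term, filterByExpr, TMM and Benjamini-Hochberg adjustment over 7194 genes, threshold 0.05. CPM use TMM library sizes; CPM per kb divide by the longest GENCODE M21 transcript tied to a curated RefSeq mRNA. An SE is the size of the log2 fold change over the root of edgeR's F. An exact permutation test of 3 against 3 cannot go below p = 0.1 and was not used. The fit was tested on simulated data with folds larger than those of the members, the same spread for every gene and no outlying library. That test does not speak to differences as small as those of the members.

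The members, lists, tests and exclusion of X and Y were chosen with earlier results of these data known. Named by rule are all members, the 2 genes with the smallest p-value and any called gene in each list, and the 5 genes with the steadiest ratio to Ehd3 and to Plvap. Other list members are named for content, those set against control 3 after their values were seen. Alternatives were DESeq2 (version 1.42.0) and its size factors, limma (version 3.58.1) with array weights or on the deposited log2 values, other filters, X and Y genes kept, a replicate block and each library left out. The values of 1 gene that the naming rule selects are not reported here.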

Additional observations from a re-analysis of the deposited data

How the results depend on the processing

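Over 14 alternatives, all planned, Ehd3, Plvap, Ramp3 and Eng kept their direction, at 0.20 to 0.43, -0.36 to -0.23, -0.32 to -0.16 and 0.07 to 0.09 on the log2 scale, and no member passed an adjusted p of 0.05 (lowest 0.401, Plvap, limma with array weights). Directions turned with limma array weights for Plat (0.22), Emcn (0.018), Nrp1 (-0.014) and Tie1 (-0.031). With 1 library left out, Plat ranged over -0.40 to 0.29, Emcn -0.49 to 0.11, Nrp1 -0.012 to 0.073, Tie1 -0.016 to 0.19, Slc5a2 -0.34 to 0.023, Pecam1 -0.11 to 0.19 and Lpl -0.0053 to 0.24. The sign turned without control 3 for the first 5, without transgenic kidney 1 for Slc5a2 and Pecam1, without control 2 for Pecam1 (-0.0025) and without transgenic kidney 2 for Lpl. The cause was not tested. The count of genes called was 1 (Ren1) and became 0 with X and Y genes kept (112 at an unadjusted p under 0.05), 0 with limma on the authors' log2 values (134), 2 with DESeq2, Ren1 among them, and 0 to 2 without 1 library (47 to 597 at an unadjusted p under 0.05). It was 0 without control 1 or without any 1 of the transgenic kidneys, and 2 without control 3, where Hba-a2 joined Ren1. The ratio of glomerular to peritubular markers differed by 0.31, by 0.42 without Emcn, and by 0.08 with the median of the genes, which was Emcn alone. It differed by 0.31 on the authors' values, and by 0.18 to 0.54 without 1 library. The number of pan-endothelial genes higher was 6, and 5 to 8 without 1 library.

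Whether replicate numbers pair the samples is not given. Deviations of same-numbered libraries correlated at 0.0018, -0.0191 and 0.3329 over genes. Deviations from a mean of 3 are tied to one another and control 3 lies apart, so these values cannot decide it. With the replicate block 1 gene was called, and 176 genes had an unadjusted edgeR p under 0.05, against 131 without the block. The blocked ratio difference, 0.31, is the mean of same-numbered differences and equals the unblocked one by arithmetic, so it tests nothing. The members have at least 643.6 estimated counts, and the 3 samples a group, 1 control among them apart, limit the comparison.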

Other observations

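Markers of other kidney cells were read for the same libraries. Of 7 proximal tubule markers 3 were higher and 4 lower (median log2 fold change -0.02), led in p-value by the glucose transporter gene Slc5a2 (-0.15, and 0.01 without control 3) and Kap (-0.10, and -0.047 without control 1), the androgen-regulated protein of the tubule. All 5 thick ascending limb markers were lower (median -0.15), and 4 of 5 without control 3 (median -0.06), among them the prostaglandin receptor gene Ptger3 (-0.42, without overlap) and the tight junction gene Cldn16 (-0.27). Of 6 inner medulla and collecting duct markers 1 was higher and 5 lower (median -0.13), and 2 were higher without control 3 (median -0.09). They were led by S100a6 (-0.42, without overlap, and -0.22 without control 3) and the aldose reductase gene Akr1b3 (-0.23, and -0.13 without control 3). The summed level was 1025 to 1192 CPM in transgenic kidneys and 1235 to 1283 CPM in controls. Of this, Aqp2 made up 514 to 626 CPM in transgenic kidneys and 599 to 692 CPM in controls. Akr1b3 made up 297 to 351 CPM in transgenic kidneys and 339 to 422 CPM in controls, and both genes overlapped between groups. None of these tubule and duct markers passed the edgeR test over all genes. Plvap is strong in medullary vessels, and the part of the share of medulla in its values was not tested.

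The 4 measured leukocyte markers were lower (median -0.22), and 3 of 4 without control 3 (median -0.11), among them the complement genes C1qa (-0.25, and -0.061 without control 3) and C1qb (-0.22, and -0.078 without transgenic kidney 1). The 3 red cell genes were lower (median -0.32, and -0.53 without control 3). Hba-a2 differed by -2.64 (-1.39 on the authors' log2 values) and Hbb-bs by -0.32 (-0.21 without transgenic kidney 3), both with overlapping groups. Levels of Hba-a2 were low, at 2.06 CPM or less in transgenic kidneys, against 14.2, 12.7 and 0.258 CPM in controls 1, 2 and 3. A close paralog could take reads of Hba-a2, which was not tested. No gene of the 5 lymphatic markers is among those listed.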
